A study of Mus musculus with 1024 samples.

Results

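The genes described here are 7 components and regulators of the complement system, C3, C4b, Cfb, Serping1, Clu, Cd55 and Cd59a, chosen by name out of the 24422 genes of a count table of mouse aortic cells. All 7 were present in the table and all 7 passed the filter on low counts in each comparison. The table held 1024 wells of 384-well plates, each sorted to receive a single cell and sequenced with the full-length Smart-seq2 protocol, and 784 wells with at least 20000 gene counts and 500 genes were kept. Every well carried the same strain label, Amotl2flow/flow / Cdh5-RREert /ROSA26-EYFP, which stands for a floxed Amotl2 allele, a tamoxifen-inducible Cre under the endothelial Cdh5 promoter and a Cre-dependent EYFP reporter. All mice were 3 months old. In the KO group (amotl2 ec-/ec-) the gene had been deleted in endothelial cells by tamoxifen. The WT group carried the same strain label, and the labels do not say by which allele or treatment it differed. Aortae of 6 mice per genotype were pooled over 2 preparations, depleted of Cd45+ leukocytes and sorted into Cd31+Cd45- wells, labelled endothelial, and Cd31-Cd45- wells, labelled double negative. Counts were summed over the wells of each gate, genotype and preparation, the last being the sort number of the labels, which gave 8 sums. Levels are given as CPM, the counts of a gene divided by all gene counts of a sum and scaled to 1000000.

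Complement is a cascade of plasma proteins that is started by antibody, by sugars on microbes or by a slow spontaneous turnover, and all starts meet at the cleavage of C3. C4b belongs to the classical and lectin branch and Cfb, factor B, to the alternative branch. Host cells are protected by soluble regulators, among them the C1 inhibitor Serping1 and clusterin (Clu), which binds terminal complexes, and by membrane proteins, among them decay-accelerating factor (Cd55) and the terminal inhibitor Cd59a. The liver is the main source of the plasma components, and fibroblasts, macrophages and endothelial cells make some of them locally.

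The sequence before the transcription start site was available for 3 of the 7 genes, and is shown because C3 and Cd55 lay on opposite sides of the comparison of gates described next, while Cd59a was alike in both. It is given for the 250 bases upstream of the RefSeq start on build GRCm38.p6, 5′ to 3′ on the gene's strand, for C3 at chr17:57228137-57228386 (minus strand), Cd55 at chr1:130462745-130462994 (minus strand) and Cd59a at chr2:104095551-104095800 (plus strand). Capitals mark matches on either strand to 3 motifs of inflammatory transcription factors, GAS (TTCNNNGAA), ISRE (GAAA, any 2 bases, GAAA) and kappaB (GGGNNTTCC).
C3: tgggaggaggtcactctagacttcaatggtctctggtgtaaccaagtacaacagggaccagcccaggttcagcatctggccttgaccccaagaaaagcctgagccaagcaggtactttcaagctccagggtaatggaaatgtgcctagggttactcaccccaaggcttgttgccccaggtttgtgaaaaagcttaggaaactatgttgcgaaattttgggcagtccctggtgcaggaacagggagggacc
Cd55: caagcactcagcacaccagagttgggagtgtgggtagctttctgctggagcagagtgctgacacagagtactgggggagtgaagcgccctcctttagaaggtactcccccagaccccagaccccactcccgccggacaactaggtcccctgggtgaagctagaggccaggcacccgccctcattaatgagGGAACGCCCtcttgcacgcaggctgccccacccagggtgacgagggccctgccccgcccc
Cd59a: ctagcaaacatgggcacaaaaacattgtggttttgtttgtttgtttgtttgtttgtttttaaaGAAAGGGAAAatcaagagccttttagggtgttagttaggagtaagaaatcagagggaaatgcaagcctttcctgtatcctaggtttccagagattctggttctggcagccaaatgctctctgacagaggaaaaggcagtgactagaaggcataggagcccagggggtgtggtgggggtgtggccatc
Cd55 held a kappaB match on the reverse strand that began 60 bases before the start, and Cd59a held an ISRE match that began 187 bases before it. No letters of the 3 motifs were found in the C3 window. Of 32851 promoter windows of this length, 7.02% held the GAS motif, 2.98% the ISRE and 4.98% the kappaB motif, so these matches are a description of the letters only.

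Kept wells numbered 676 in the Cd31+ gate and 108 in the Cd31- gate, with a median of 159625 and 117926 gene counts per well. The 8 sums held between 926398 and 94881185 counts, and the 2 Cd31- sums of preparation 2 rested on 12 and 14 wells. The 10 endothelial markers summed to 14408 to 17022 CPM in the Cd31+ sums and to 24.8 to 1233 CPM in the Cd31- sums, where the highest value, in WT of preparation 2, went with 1 well that clustered with endothelial cells. Macrophage markers did not exceed 12.1 CPM in any sum, and Lyz2 and Fcgr1 were at 0. Amotl2 measured 60 and 94 CPM in the WT Cd31+ sums against 52 and 46 CPM in the KO Cd31+ sums. Its log2 fold change of -0.66 ± 0.32 (SE) did not pass the test. The paper checked recombination by loss of an exon from Amotl2 transcripts and by the YFP reporter, whereas the counts here are per gene. EYFP was at 113 and 85.5 CPM in the KO and at 2.38 and 0.35 CPM in the WT Cd31+ sums. Its log2 fold change of 6.00 ± 0.64 (SE) did not pass the test either (adjusted p = 0.0596, edgeR). The WT Cd31+ sum of preparation 1 stood apart from the other Cd31+ sums, with MHC class II genes at 6523 CPM against 147 to 348 CPM and interferon-induced genes at 8030 CPM against 2120 to 2526 CPM.

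The Cd31+ and Cd31- sums were compared to find which complement genes belonged to the endothelial and which to the other aortic cells. Of the 7 genes, 2 were lower in Cd31+ than in Cd31- sums, C3 and Serping1, and 2 were higher, Clu and Cd55, while C4b, Cfb and Cd59a did not pass the test (edgeR quasi-likelihood test, Benjamini-Hochberg adjusted p under 0.05 over 12729 genes). The same test called 19% of all genes, 9.79% higher and 9.25% lower in Cd31+, and 30.8% had an unadjusted p under 0.05. How many of all genes had sums without overlap between the gates was not counted, so a lack of overlap is a description only. The median log2 fold change of the 7 genes was -2.30, against 0.15 for all genes tested. In such sums, fewer cells of a type and less RNA per cell cannot be told apart.

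**Figure D1:**
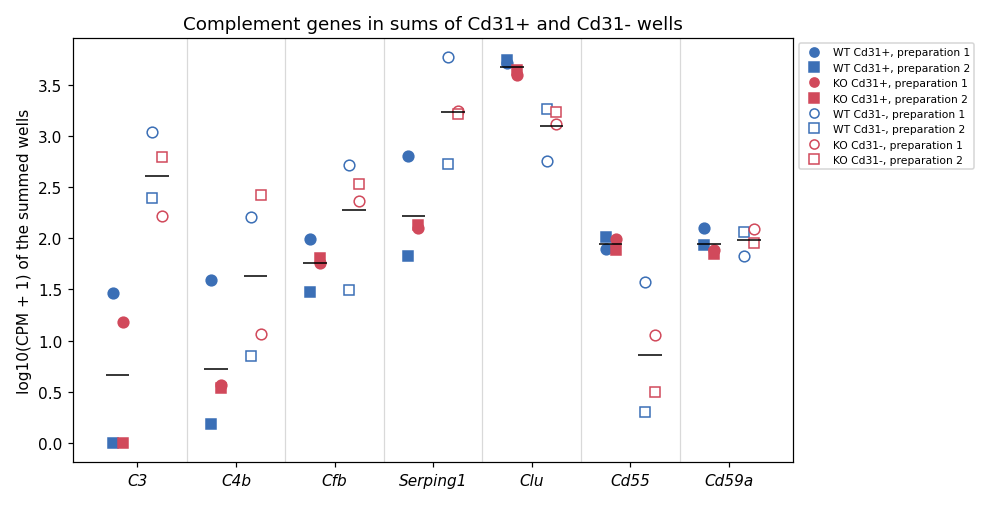
Each point is 1 of 8 sums of wells, with log10(CPM + 1) on the vertical axis, filled symbols for Cd31+ and open symbols for Cd31- sums, blue for WT, red for KO, circles for preparation 1 and squares for preparation 2, and a line at the mean of 4 points. C3, Clu and Cd55 show no overlap between the gates, a pattern that was not counted over all genes, while Cd59a lies between 66.2 and 124 CPM in all 8 sums. In each Cd31- sum of preparation 2, 1 well held 99.8% or more of the C3 counts.

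C3, the central component whose cleavage starts opsonisation and the terminal pathway, was mostly found in the Cd31- gate. The Cd31- sums held 1081 CPM (WT) and 164 CPM (KO) in preparation 1, against 246 CPM (WT) and 622 CPM (KO) in preparation 2. In the Cd31+ sums it was 28.4 CPM and 14.1 CPM in WT and KO of preparation 1, and no count was found in preparation 2. The lowest Cd31- sum thus lay above the highest Cd31+ sum. In preparation 2 this rested on 1 well of each Cd31- sum, which held 100% (WT) and 99.8% (KO) of the C3 counts. Without that well these sums were at 0 and 1.23 CPM. The log2 fold change was -5.77 ± 1.65 (SE, n = 4 sums per gate), or 54.8-fold lower in Cd31+, with an adjusted p of 0.0402 by edgeR. The call was lost, with adjusted p from 0.0558 to 0.0858, when any 1 of 5 sums was left out (WT or KO Cd31+ of preparation 2, WT or KO Cd31- of preparation 1, or KO Cd31- of preparation 2), and with only wells of at least 100000 counts (adjusted p = 0.118). The size also depended on single sums, from -5.03 without WT Cd31- of preparation 1 to -10.40 and -11.33 without the KO and WT Cd31+ sums of preparation 1.

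The few C3 counts in the Cd31+ gate came from 8 of 676 wells, a share of 1.18% (95% Clopper-Pearson interval 0.512 to 2.32), against 32 of 108 Cd31- wells, or 29.6% (21.2 to 39.2). In preparation 2 none of 50 WT and 89 KO Cd31+ wells held a C3 count, with upper limits of 7.11% and 4.06% by the same interval (6.00% and 3.37% by 3 counts over the number of wells). One well held 98.9% of the C3 counts of the WT Cd31+ sum of preparation 1. That well had Adipoq at 7328 CPM and Cfd, the factor D that adipocytes secrete, at 46990 CPM, and no Pecam1 or Cdh5 count, although it lay in an endothelial cluster and the Cd31+ gate. It held all 7 complement genes, with C4b at 1030 CPM and C3 at 2418 CPM. Without it, C3 in that sum was at 0.30 CPM, and the difference between the gates reached a log2 fold change of -8.83 (adjusted p = 0.0034 by edgeR), an analysis chosen after seeing this well. In the KO Cd31+ sum of preparation 1, 1 well with Pecam1 at 7187 CPM and the fibroblast gene Dcn at 736 CPM held 63.5% of the C3 counts. Another 437 of its 1341 C3 counts came from 2 wells that clustered with fibroblast-like cells. In the clustering described below, the Cd31+ gate held these 2 wells and 14 smooth muscle-like wells.

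C4b, the mouse C4 that feeds the classical and lectin C3 convertase, measured 161 and 10.5 CPM in the WT and KO Cd31- sums of preparation 1, and 6.07 and 261 CPM in those of preparation 2. In Cd31+ wells it was at 37.9, 2.73, 0.53 and 2.48 CPM in WT and KO of preparation 1 and WT and KO of preparation 2. The ranges overlapped, because WT Cd31+ of preparation 1 was higher than 2 of the Cd31- sums. In each Cd31- sum of preparation 2, 1 well held all C4b counts. The log2 fold change of -4.03 ± 1.42 (SE) did not pass the test (adjusted p = 0.0840, edgeR). With each genotype and preparation as a replicate block it was -3.42 with an adjusted p of 0.0271 (edgeR), so that C4b was called in the paired fit. It was also called by DESeq2 (adjusted p = 0.0301), and by edgeR after thinning each well to 20000 counts (adjusted p = 0.011), without the WT Cd31+ sum of preparation 1 (log2 fold change -6.63, adjusted p = 0.0433), or with no filter on low counts (adjusted p = 3.13e-17). The fit with no filter keeps every gene with a count. Its adjusted p, here and for Cfb below, is far smaller than in the other fits, for a reason that was not tested. C4b shared 34.6% of its 50-base words with its near copy C4a, so that counts of C4b carry this uncertainty.

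Cfb, the protease of the alternative C3 convertase, measured 518 and 228 CPM in the WT and KO Cd31- sums of preparation 1 and 30.4 and 341 CPM in those of preparation 2. The Cd31+ sums held 97.3, 56.1, 28.6 and 62.9 CPM in the same order. WT Cd31- of preparation 2 lay within the Cd31+ range, and the other Cd31- sums lay above it. In each Cd31- sum of preparation 2, 1 well held all Cfb counts. The log2 fold change of -2.30 ± 0.75 (SE) gave an adjusted p of 0.0633 with edgeR, and with the replicate block it was -1.92 with an adjusted p of 0.0171. DESeq2 (adjusted p = 0.00536), thinned wells (0.0123), the fit with no filter on low counts (3.96e-09) and the fit without WT Cd31- of preparation 2 (0.00382) also called it. Unlike C3, Cfb was found in many Cd31+ wells, 216 of 676 or 32.0% (28.4 to 35.6), against 37 of 108 or 34.3% (25.4 to 44.0) of the Cd31- wells. Cfb shares exon bases on its strand with Gm20547, and reads there cannot be assigned to one of them.

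Serping1, the C1 inhibitor that blocks C1r, C1s and the MASP proteases, had the highest mean level of the 7 genes in Cd31- wells per kilobase of exon, at 1049 ± 1009 CPM per kb (SD, n = 4). The order did not hold in every sum, since in WT of preparation 2 Clu was at 529 and Serping1 at 227 CPM per kb. Its Cd31- sums held 5861 CPM (WT) and 1733 CPM (KO) in preparation 1, against 528 and 1634 CPM in preparation 2. Its Cd31+ sums were at 634 and 126 CPM in preparation 1 and at 66.4 and 135 CPM in preparation 2. WT of preparation 1 was highest in both gates, and its Cd31+ sum overlapped the lowest Cd31- sum. In each Cd31- sum of preparation 2, 1 well held most Serping1 counts, 66.1% in WT and 78.9% in KO. Without that well these sums were at 188 and 393 CPM, both below the WT Cd31+ sum of preparation 1. Serping1 had a log2 fold change of -3.54 ± 0.85 (SE), or 11.6-fold lower in Cd31+ (adjusted p = 0.0201, edgeR). The call was lost without the KO Cd31+ sum of preparation 1 (adjusted p = 0.065) or of preparation 2 (0.0555), and the log2 fold change ranged from -2.23 without WT Cd31- of preparation 1 to -4.75 without WT Cd31+ of preparation 1. Counts were found in 102 of 108 Cd31- wells, or 94.4% (88.3 to 97.9), and in 426 of 676 Cd31+ wells, or 63.0% (59.3 to 66.7). By sum the Cd31+ share was 85.5% and 42.7% in WT and KO of preparation 1, and 54.0% and 77.5% in those of preparation 2. None lies inside the interval, which does not cover the spread between sums.

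Clu, a secreted chaperone that keeps the terminal complex out of membranes, showed the reverse order. The Cd31+ sums were at 5142 and 3906 CPM in WT and KO of preparation 1 and at 5485 and 4421 CPM in preparation 2. The Cd31- sums were at 569, 1318, 1819 and 1711 CPM in the same order, all below the lowest Cd31+ sum. Between the gates the log2 fold change was 1.69 ± 0.37 (SE), or 3.23-fold higher in Cd31+ (adjusted p = 0.0137, edgeR), and was 1.61 with an adjusted p of 0.0542 without the KO Cd31- sum of preparation 1. At 1379 ± 207 CPM per kb (SD, n = 4) Clu was the most abundant of the 7 in Cd31+ wells, above Serping1 at 103 ± 114 CPM per kb. Its transcripts were found in 672 of 676 Cd31+ wells.

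Cd55, which takes apart C3 convertases on the cell's own membrane, measured 77.7 and 96.4 CPM in the WT and KO Cd31+ sums of preparation 1 and 102 and 75.0 CPM in those of preparation 2. The Cd31- sums held 36.6, 10.4, 1.01 and 2.16 CPM, all below the Cd31+ sums. Cd55 had a log2 fold change of 2.75 ± 0.75 (SE), or 6.72-fold higher in Cd31+ (adjusted p = 0.0334, edgeR). Leaving out any Cd31+ sum, or either KO Cd31- sum, took the adjusted p to between 0.0601 and 0.0857, and thinning the wells took it to 0.0516. The log2 fold change was 4.90 without WT Cd31- of preparation 1, 3.57 without KO Cd31- of preparation 1 and 2.31 without WT Cd31- of preparation 2. A count was found in 304 of 676 Cd31+ wells, 45.0% (41.2 to 48.8), and in 14 of 108 Cd31- wells, 13% (7.27 to 20.8). After thinning to equal depth these shares were 35.1% and 8.33%. Cd55 shares exon bases with Gm16083 on the opposite strand.

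Cd59a, the inhibitor of the last step of the membrane attack complex, did not separate the gates. Its Cd31+ sums were at 124, 76.6, 84.5 and 69.9 CPM and its Cd31- sums at 66.2, 121, 115 and 89.6 CPM in WT and KO of preparation 1 and WT and KO of preparation 2. The log2 fold change was -0.27 ± 0.30 (SE, adjusted p = 0.604, edgeR), and it turned to 0.25 with only wells of at least 100000 counts. The share of wells with a count was 57.4% in both gates.

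**Figure D2:**
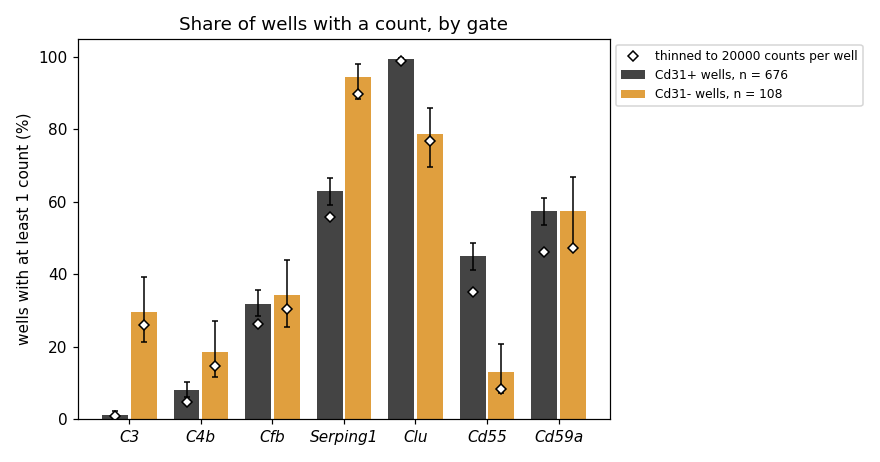
Bars show the percentage of kept wells with at least 1 count of each gene, black for 676 Cd31+ and orange for 108 Cd31- wells. Error bars are the 95% Clopper-Pearson interval over pooled wells, which leaves out the spread between sums. Diamonds show the percentage after each well was thinned to 20000 counts. C3 stands at 1.18% against 29.6%, Cd55 at 45.0% against 13%, and Cd59a at the same share in both gates.

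Clustering of the 784 wells gave a smooth muscle-like cluster of 84 wells, led by Myh11 and Cnn1, and a fibroblast-like cluster of 39 wells, led by Tgfbi, Smoc2, Lum and Dcn. Of the 108 Cd31- wells, 70 lay in the first, 37 in the second and 1 in an endothelial cluster, and the values that follow are of Cd31- wells only. Of the 59 complement genes listed, 9 were among the variable genes used, so levels by cluster are a description with no test. The 37 fibroblast-like wells held C3 at 1468 CPM, C4b at 215 CPM, Cfb at 907 CPM and Serping1 at 8258 CPM. The 70 smooth muscle-like wells held C3 at 0.35 CPM, C4b at 1.40 CPM, Cfb at 3.23 CPM and Serping1 at 315 CPM. The 3 activating components of the Cd31- gate therefore lay in the fibroblast-like wells, while Serping1 was present in both kinds of cell. C3 was found in 30 of 37 fibroblast-like wells, Cfb in 32, Serping1 in all 37 and C4b in 18, and 27 of the 30 wells with C3 also held Cfb. In smooth muscle-like wells C3 was found in 2 of 70, Cfb in 5 and Serping1 in 64.

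Clu and Cd59a, both regulators, had the opposite order inside the Cd31- gate. Clu was at 1615 CPM in smooth muscle-like and at 148 CPM in fibroblast-like wells, and Cd59a was at 149 CPM and 10.5 CPM. All 70 smooth muscle-like wells held Clu, against 14 of 37 fibroblast-like wells. Cd55 was at 52.9 CPM in fibroblast-like wells, where 14 of 37 held a count. None of the 70 smooth muscle-like wells held one, which allows a share of up to 4.29% (3 counts over the number of wells). With the listed complement genes left out of the variable genes, the fibroblast-like cluster of both gates held the same 39 wells and the smooth muscle-like cluster its 84 wells and the well with adipocyte markers, which took C3 there to 75.0 CPM, C4b to 32.9 CPM and Cfb to 30.3 CPM.

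**Figure D3:**
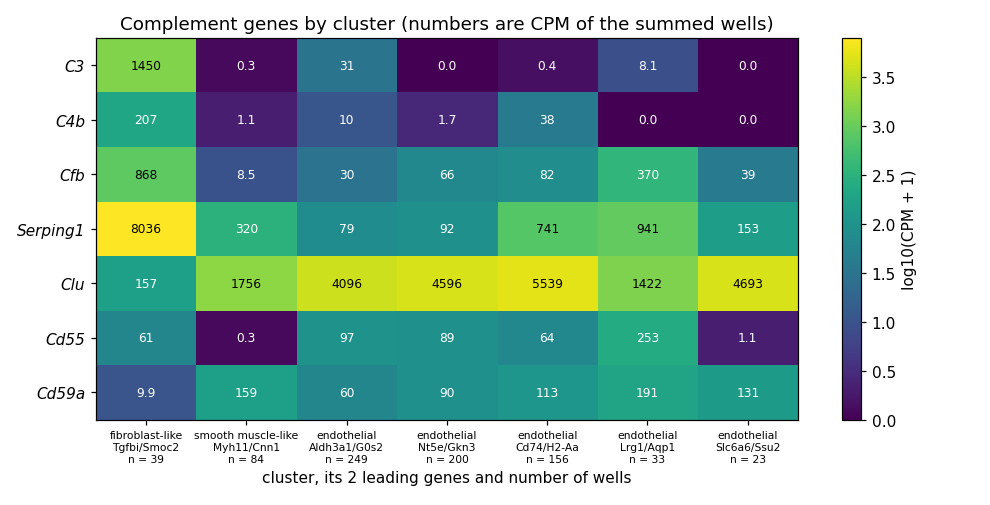
Colour shows log10(CPM + 1) and the printed number the CPM of each gene, in rows, over the summed wells of each cluster, in columns with the 2 leading genes and the number of wells, with wells of both gates pooled. C3 stands at 1450 CPM in the fibroblast-like column and at no more than 30.5 CPM in the others, and Clu is lowest there, at 157 CPM.

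Among endothelial clusters the 7 genes also differed. The 2 largest, 249 wells led by Aldh3a1 and G0s2 and 200 wells led by Nt5e and Gkn3, held Serping1 at 78.6 and 91.7 CPM, Cfb at 30.1 and 65.8 CPM and Clu at 4096 and 4596 CPM. C3 in the first of these was at 30.5 CPM, and at 13.3 CPM without the well with adipocyte markers. A cluster of 33 wells led by Lrg1, Aqp1, Htr2b and Ackr1 held Cfb at 370 CPM, Serping1 at 941 CPM, Cd55 at 253 CPM, Cd59a at 191 CPM and Clu at 1422 CPM. In preparation 1 its Clu level was 2420 CPM in WT and 255 CPM in KO wells, and Serping1 of the 11 KO wells fell from 783 to 220 CPM without 1 well. Cfb was found in 23 of its 33 wells and Cd55 in 26, and the median number of the 7 genes found per well was 5, against 2 and 3 in the 2 largest clusters. Of these 33 wells, 19 came from WT and 11 from KO of preparation 1 and 3 from KO of preparation 2. A cluster of 23 wells led by Slc6a6 and Ssu2 held Cd55 at 1.09 CPM, in 1 well, and Clu at 4693 CPM.

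The remaining endothelial cluster, of 156 wells, had Cd74 and H2-Aa as its leading genes, together with H2-Eb1 and H2-DMa, all of the antigen-presenting MHC class II pathway that interferon gamma induces. Of these wells, 155 came from WT of preparation 1 and 1 from KO of preparation 1. It held Serping1 at 741 CPM, with counts in 150 of 156 wells, C4b at 37.7 CPM in 37 wells, Cfb at 82.2 CPM and Clu at 5539 CPM. C3 was at 0.44 CPM. Within WT Cd31+ wells of preparation 1, Serping1 was at 741 CPM in the 155 wells of this cluster and at 399 CPM in the other 80 wells. Of the latter, 19 wells of the Lrg1- and Aqp1-led cluster were at 1108 CPM, while the wells of the 2 largest clusters, 22 each, were at 96.1 and 85.3 CPM, within the 66.4 to 135 CPM of the other Cd31+ sums. Nearly all C4b of those other 80 wells, 99.6%, came from the well with adipocyte markers.

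**Figure D4:**
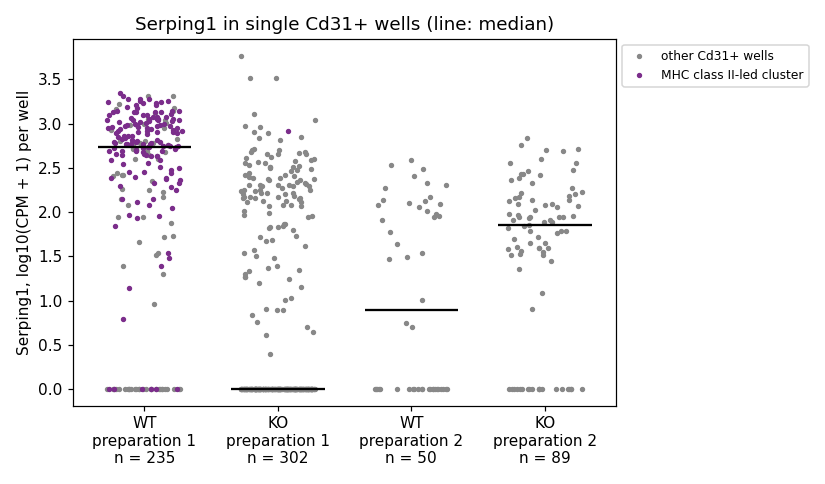
Each point is 1 kept Cd31+ well, with Serping1 as log10(CPM + 1) on the vertical axis, purple for the MHC class II-led cluster and grey for the other wells, and a line at the median of each genotype and preparation. The median is 540 CPM in WT of preparation 1, 0 in KO of preparation 1, 6.81 CPM in WT of preparation 2 and 70.2 CPM in KO of preparation 2.

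The KO and WT Cd31+ sums were compared to find complement genes that changed with loss of Amotl2 in endothelial cells. None of the 7 passed the test. No gene was called among 12702 (edgeR, 0.00%), 468 genes or 3.68% had an unadjusted p under 0.05, and DESeq2 called 37 genes. The EYFP reporter of the KO was also not called, at a log2 fold change of 6.00 (adjusted p = 0.0596, edgeR). With 2 sums per genotype, the lack of a call therefore does not show that a gene was unchanged. The fitted log2 fold changes of the 7 were all below 0, from -2.87 to -0.06, with a median of -0.50 against 0.00 for all genes, and all adjusted p were 1.00. Leaving out the WT sum of preparation 1 turned the sign for C3, C4b, Cfb and Serping1.

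Serping1 was lower in KO than in WT in preparation 1 (126 against 634 CPM) and higher in KO in preparation 2 (135 against 66.4 CPM). Its log2 fold change was -1.40 ± 0.74 (SE, n = 2 sums per genotype). It was 0.96 without the WT sum of preparation 1 and -2.25 without the WT sum of preparation 2, fits that leave 1 WT sum. The value of -1.40 was called when no filter on low counts was used (adjusted p = 7.76e-04, edgeR). C4b moved in the same way, with 2.73 against 37.9 CPM in preparation 1 and 2.48 against 0.53 CPM in preparation 2. Its log2 fold change of -2.87 ± 1.32 (SE) turned to 2.27 without WT of preparation 1 and became -3.84 without WT of preparation 2. It was called with no filter (adjusted p = 0.018, edgeR). Both genes were highest in the sum with MHC class II genes at 6523 CPM, and without the wells of the MHC class II-led cluster, an analysis chosen after seeing the data, the log2 fold change was -0.77 for Serping1 and -2.83 for C4b, the latter with the well with adipocyte markers still included. Preparation 1 had 1 plate per genotype, so that its plates and genotypes cannot be told apart, whereas both genotypes of preparation 2 lay on 1 plate.

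C3 had no count in Cd31+ wells of preparation 2, and its log2 fold change of -1.04 ± 1.85 (SE) rested on the single WT well with adipocyte markers. It was 11.09 without the WT sum of preparation 1 and -1.99 without that of preparation 2, fits that leave 1 WT sum. After removal of the single well C3 no longer passed the filter on low counts. Cfb was at 56.1 against 97.3 CPM in preparation 1 and at 62.9 against 28.6 CPM in preparation 2, with a log2 fold change of -0.06 ± 0.48 (SE), which was 1.04 without WT of preparation 1. Clu was lower in KO in both preparations, 3906 against 5142 CPM and 4421 against 5485 CPM, with a log2 fold change of -0.34 ± 0.26 (SE, raw p = 0.223 from edgeR). Cd59a was also lower in both, 76.6 against 124 CPM and 69.9 against 84.5 CPM (log2 fold change -0.50 ± 0.28, raw p = 0.111 from edgeR). Cd55 was higher in preparation 1 and lower in preparation 2 (log2 fold change -0.07 ± 0.28).

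In the Cd31- gate, where the Cdh5 promoter of the Cre is not active and EYFP had no count, none of the 7 passed the test either. No gene was called among 10544 (edgeR, 0.00%), 275 genes or 2.61% had an unadjusted p under 0.05, and DESeq2 called 5 genes. C3, C4b and Cfb were lower in KO than in WT in preparation 1 and higher in preparation 2. Their log2 fold changes were -0.72 ± 0.83, 0.71 ± 1.43 and 0.05 ± 0.99 (SE). Cfb was at 3.28 when the WT sum of preparation 1 was left out, which leaves 1 WT sum. The share of fibroblast-like wells was lower in KO in preparation 1, like these levels, with 26 of 42 WT and 9 of 40 KO wells. In preparation 2 it was 1 of 12 WT and 1 of 14 KO wells. The WT well held 45706 of the 988038 counts of its sum, and in KO the other 13 wells held 814086 of 926398. In the 1 well of WT and of KO, C3 was at 5317 and 5120 CPM, C4b at 131 and 2155 CPM and Cfb at 656 and 2814 CPM. Whether the share of counts from fibroblast-like wells set these levels was not tested. In both sums of preparation 2 a single fibroblast-like well held 99.8% or more of the C3, C4b and Cfb counts. Within fibroblast-like wells of preparation 1, C3 measured 1725 CPM over 26 WT wells and 709 CPM over 9 KO wells, C4b was at 254 and 42.6 CPM, Cfb at 824 and 971 CPM and Serping1 at 9193 and 6369 CPM. These wells came from 1 preparation and allow no test.

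Serping1 in the Cd31- gate had a log2 fold change of -0.93 ± 0.91 (SE), and with only smooth muscle-like wells, a choice made after seeing these shares, it was 0.69 (adjusted p = 1.00, edgeR). In smooth muscle-like wells Serping1 was at 270 and 337 CPM in WT and KO of preparation 1 and at 195 and 393 CPM in those of preparation 2, higher in KO in both. Clu there was at 1353 and 1645 CPM and at 1788 and 1947 CPM, also higher in KO in both. Over all Cd31- wells Clu had a log2 fold change of 0.38 ± 0.62, Cd59a of 0.24 ± 0.54 and Cd55 of -1.58 ± 1.58 (SE). A test of whether the genotype difference itself differed between the gates called no gene (edgeR, 0.00% of 12729, with 657 or 5.16% at an unadjusted p under 0.05, DESeq2 not run).

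The rest of the pathway was read from a list of 59 genes, of which 26, the 7 members included, were tested between the gates, 4 higher and 6 lower in Cd31+ (all genes, 9.79% higher and 9.25% lower). Among 19 genes of classical and lectin activation, 7 were tested and 3 were lower in Cd31+, namely the C1 protease C1s1 (log2 fold change -5.74 ± 0.65), the convertase protease C2 (-8.03 ± 1.13) and the scavenger collectin Colec12 (-1.44 ± 0.30). C1s1 was at 132 to 446 CPM in the Cd31- sums and at 1.77 to 8.86 CPM in the Cd31+ sums, so that C1s1 and its inhibitor Serping1 were both lower in Cd31+. C1ra, the partner of C1s1, was at 96.6 to 148 CPM in Cd31+ and at 74.9 to 307 CPM in Cd31- sums and was not called (adjusted p = 0.634). C1s1 and C1ra share 21.9% and 48.0% of their 50-base words with C1s2 and C1rb. The recognition chains C1qa, C1qb and C1qc and the lectins Mbl1, Mbl2, Fcna and Fcnb had no count in any kept well.

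Of the terminal components, C7 was at 54.7 to 1275 CPM in Cd31- sums and at 0 to 3.62 CPM in Cd31+ sums (log2 fold change -11.89 ± 1.72, adjusted p = 0.00295, edgeR), C8g was at no more than 3.03 CPM in any sum, and C8a, C8b and C9 had no count. Among membrane regulators, Thbd, thrombomodulin, was higher in Cd31+ (log2 fold change 1.97 ± 0.39) at 562 to 823 CPM, and the Crry gene Cr1l, at 230 to 242 CPM in Cd31+ and 118 to 151 CPM in Cd31- sums without overlap, was not called (adjusted p = 0.0589). Of the receptors, Cd93 was higher in Cd31+ (log2 fold change 10.14 ± 2.26) at 658 to 903 CPM, while 3 of 4 Cd31- sums were at 0, and C1qbp, at 52.9 to 104 CPM over all sums, was not called (adjusted p = 0.955). The C3a and C5a receptors C3ar1 and C5ar1 were at no more than 0.58 CPM in any sum. Between genotypes no listed gene was called, of 28 tested in the Cd31+ and 18 in the Cd31- gate.

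**Figure D5:**
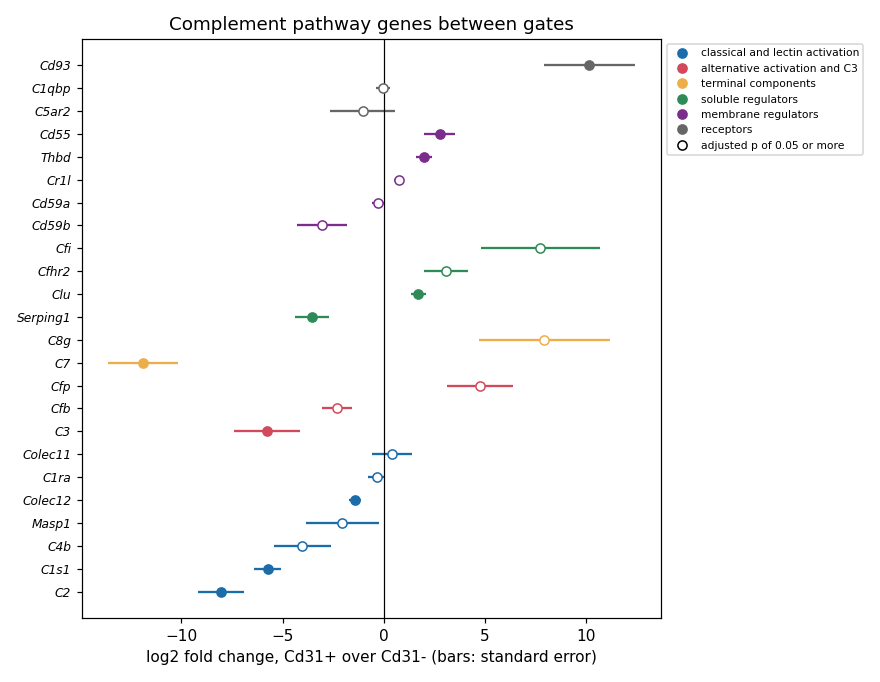
Points are log2 fold changes of Cd31+ over Cd31- sums for 24 of the 26 listed complement genes that were tested, Cd46 being left out for its standard error above 10 and 1 gene not being reported here, with bars of 1 standard error, colours by role and open symbols for an adjusted p of 0.05 or more. C2, C1s1, C3, C7 and Serping1 lie to the left of 0, and Clu, Cd55, Thbd and Cd93 to the right.

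Genes most like each of the 7 were ranked by Pearson's r of log2(CPM + 1) over the 8 sums among 8784 genes, a description in which the gates set most of the spread. Clu was closest to Tnfaip8 (r = 0.986), Edn1 (0.984) and Esam (0.983), Cd55 to Cyb5r1 (0.994), Tpm4 (0.994) and Rapgef3 (0.992), and C3 to Slc1a5 (0.979) and Mn1 (0.976). Serping1 was closest to Tkt (0.970), Gpc3 (0.969) and Atg9a (0.958), Cfb to Angptl4 (0.980), Atp9a (0.955) and Ublcp1 (0.948), C4b to Acp2 (0.948), Kcmf1 (0.934) and Plac8 (0.929), and Cd59a to Mob4 (0.909), Cfl1 (0.865) and Pdgfa (0.849). Over single Cd31+ wells within each pool the mean Spearman rho of Serping1 was highest with H2-Ab1 (0.281), H2-Aa (0.278) and Emcn (0.268), and that of Clu with Cdh13 (0.359), Cytl1 (0.338) and Klk10 (0.301). The other 5 genes had no gene above 0.282. These mean values are low and share the depth of the wells. They also hide a spread between pools. The rho of Serping1 with the summed MHC class II genes was 0.486 and 0.109 in WT and KO of preparation 1. In WT and KO of preparation 2 it was 0.302 and 0.246. The highest was in the pool that held nearly all wells of the MHC class II-led cluster.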

How the data were processed

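RNA of single sorted cells was measured by Smart-seq2 without molecular identifiers. The deposited counts are whole-number reads per gene that the authors aligned with STAR 2.7.7a to GRCm38 with ERCC spike-ins and EYFP added, cleared of duplicates with Picard 2.22.0 and counted with HTSeq 0.9.1. Lines that name no gene (46.9% of the table, HTSeq summary lines) and ERCC lines (1.25%) were left out. The labels gave gate, genotype and a sort number, which is called preparation here. Of 1024 wells, 784 passed 20000 counts and 500 genes. Wells were summed into 8 sums and tested with edgeR 4.0.16 (TMM normalization, filterByExpr, quasi-likelihood test, Benjamini-Hochberg adjustment over all genes, threshold 0.05), with DESeq2 1.42.0 as an alternative. SE is the log2 fold change divided by the square root of its F statistic. The scripts were tested on simulated data that varied less between sums than the real counts, so this does not show what the real tests can detect.

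The gate comparison used all 8 sums in 4 groups and set the mean of the Cd31+ groups against that of the Cd31- groups, and the genotype comparisons used the 4 sums of a gate. p-values measure only the spread between 2 preparations of pooled mice. Intervals cover counting error only, taking pooled wells as independent, and leave out the spread between preparations. Reads are not independent molecules either. Clusters were made with Seurat 5.3.0 (2000 variable genes, 30 dimensions, resolution 0.5), and an endothelial cluster has Cdh5 in over 50.0% of its wells. Doublets were not called. No 2 wells held the same counts. The 7 genes, the list of 59 complement genes and the marker lists were chosen with earlier results of these data known. Genes named beside the 7 were those called, those with the highest CPM of their role, and the 3 most like each member, of which 1 is not reported here, as is 1 of the listed complement genes. Cr1l, C3ar1, C5ar1 and genes named for a lack of counts were picked after their values were seen. Sums of the same preparation share a sort number, and within a genotype both gates carry the same sort label. Which mice they share is not stated in the labels. Deviations of paired sums from their group means correlated at 0.147 (WT and KO Cd31+), 0.0771 (WT and KO Cd31-), 0.064 (WT, both gates) and 0.0408 (KO, both gates). Gene positions and lengths are from GENCODE M21, and promoters from RefSeq (3 of 7 genes matched).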

Additional observations from a re-analysis of the deposited data

Results flagged for a closer look

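Each member's 4 sums per gate were checked for a sum that lies far from the other 3 (14 groups, a gap above Dixon's 95% critical value, which chance exceeds in about 1 in 20 groups), and 2 were found. Serping1 in the WT Cd31+ sum of preparation 1 was at 634 CPM, with 87.9% of the range lying between it and the next sum. C4b in the same sum was at 37.9 CPM, with 94.1% of the range in the gap. MHC class II and interferon-induced genes were also highest in that sum, at 6523 and 8030 CPM.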

How the results depend on the processing

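Between the gates, the 7 genes kept their direction and side of the threshold in 85 of 112 values from alternative fits, and the changed calls stand beside each gene. Without 1 sum these log2 fold changes ranged from -11.33 to -5.03 (C3), -6.63 to -2.11 (C4b), -2.88 to -0.70 (Cfb), -4.75 to -2.23 (Serping1), 1.40 to 2.24 (Clu), 2.31 to 4.90 (Cd55) and -0.44 to -0.04 (Cd59a). Among these only Cd59a turned, to 0.25, with wells of at least 100000 counts. The count of genes called between the gates was 2423 and fell to 1355 at the lowest (2542 at the highest) without 1 sum. Between KO and WT Cd31+ the count of 0 became 1 with the replicate block, RLE normalization, gate and cluster both, or without the adipocyte-marker well (added after seeing the data), 8 when thinned, 37 with DESeq2, 104 with no filter and 5 to 311 without 1 sum. Between KO and WT Cd31- it became 24 with no filter, 5 with DESeq2 and 0 to 79 without 1 sum, and for the difference of the genotype effects between the gates 163 with no filter and 0 to 42 without 1 sum. Leaving out 1 sum leaves an arm with 1, which is assumed to vary like the others. In Cd31+ the log2 fold change of Cfb turned to 0.16 with the replicate block, 0.021 in wells of at least 100000 counts and 0.018 without the adipocyte-marker well, and when thinned C3 turned to 0.12 and Cd55 to 0.22. Without 1 sum the ranges were -3.84 to 2.27 (C4b), -11.13 to 11.09 (C3), -0.68 to 1.04 (Cfb), -2.25 to 0.96 (Serping1) and -0.28 to 0.16 (Cd55). In Cd31-, thinning turned C4b to -0.15, Cfb to -0.40 and Cd59a to -0.23, deep wells turned C3 to 0.22, and smooth muscle-like wells alone turned Serping1 to 0.69 and Cd59a to -0.21. The ranges without 1 sum were -3.01 to 4.54 (C4b), -2.01 to 0.74 (C3), -0.84 to 3.28 (Cfb), -1.78 to 1.72 (Serping1), -0.21 to 1.44 (Clu), -3.09 to 2.66 (Cd55) and -0.088 to 0.69 (Cd59a). The causes were not tested. The replicate block changed no other call of the 7 genes. The 2 Cd31- sums of preparation 2, of 12 and 14 wells, limit what can be seen for genes of few cells.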
